A study of Mus musculus with 3 samples.

Results

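The cells described here are the 130 TCF-1-deficient bone marrow precursors in which at least 1 Zbtb16 UMI (a counted RNA molecule) was read, out of 716 cells of the ILCpro_KO library and 3355 kept cells of all 3 libraries. They were chosen by that reading alone, among cells that had 500 or more detected genes and no more than 10% mitochondrial UMIs. ILCpro_KO came from Tcf7EGFPnull/- mice, in which both copies of the gene for TCF-1 are inactive and one carries the EGFP reporter. The other 586 ILCpro_KO cells, with no Zbtb16 UMI, shared their library, mice and sort. The third group was the 839 of 1829 ILCpro_WT cells with Zbtb16, from Tcf7EGFP/+ mice, which keep 1 working copy, so that "WT" stands for a heterozygous reporter. Both populations were sorted as Lin- Kit+ 2B4+ a4b7+ cells positive for the Tcf7 reporter, from C57BL/6 bone marrow. ALP, an earlier population from Tcf7EGFP/+ mice, sorted for Flt3high and IL-7Ra+ within Lin- Kit+ 2B4+ a4b7- cells, serves below only as a further level of Zbtb16. Each population is 1 10x Chromium v2 library, and the labels do not give the number of mice behind it. No difference below has a replicate check and no test was made: intervals cover counting error at 95% only, and cells of a library are not replicates.

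Zbtb16, on chromosome 9 (GRCm38 48654297 to 48836222, minus strand), encodes PLZF, a zinc finger transcription factor that marks the precursors of innate lymphoid cells (ILCs), tissue-resident lymphocytes without rearranged antigen receptors. PLZF also directs the innate-like program of NKT cells, and it recruits co-repressors through its BTB domain. TCF-1, the product of Tcf7, is an HMG box factor switched on earlier on this path, in early innate lymphoid precursors, and ILC development is largely lost without it. The cells with Zbtb16 in the ILCpro_KO library are thus those that hold RNA of a later regulator while TCF-1 is missing.

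The label calls the cells TCF-1-null, which RNA could not check. Tcf7 reads were still present, at 140 CPM (the gene's UMIs scaled to a fixed total per group, 95% interval 97.7 to 193) in ILCpro_KO cells with Zbtb16, against 58.7 in ILCpro_KO cells without and 492 in ILCpro_WT cells with Zbtb16. Which part of Tcf7 is missing from the null alleles is not in the labels, so 3' tags of this gene check neither the genotype nor the protein. Levels in CPM and shares of cells below come from cells thinned to 2000 UMIs each unless all UMIs are named. The depth before thinning differed, with a median of 5879 UMIs in the 130 cells, 5156.5 in ILCpro_KO cells without Zbtb16 and 2992 in ILCpro_WT cells with it. Thinning left out 1, 15 and 154 shallower cells, so that 129, 571 and 685 entered the sums, and 1 UMI in the 129 cells equals 3.88 CPM. ILCpro_KO and ILCpro_WT shared 1 cell barcode, which belongs to an ILCpro_KO cell with 2 Zbtb16 UMIs, and without it the cells numbered 129 of 715, or 18%.

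The 130 cells were 18.2% of the ILCpro_KO library (exact interval 15.4 to 21.2), against 45.9% in ILCpro_WT and 0.123% in ALP, where 1 of 810 cells had a Zbtb16 UMI. Most of them stood at the threshold. A single Zbtb16 UMI was read in 77 cells (59.2%), 2 UMIs in 31, 3 in 13, 4 in 7 and 8 in 2 cells. Just inside the threshold, the 77 cells with 1 UMI had a median depth of 5835 UMIs, and just outside it the 586 cells with none had 5156.5. In ILCpro_WT, 49.6% of the cells with Zbtb16 had a single UMI, and 1 cell reached 15. At equal depth, Zbtb16 was read in 7.86% of ILCpro_KO cells (5.97 to 10.1), 34.0% of ILCpro_WT cells (31.5 to 36.5) and 0.131% of ALP cells. Within the cells chosen for it, the level of Zbtb16 was 275 CPM (215 to 347) in ILCpro_KO and 563 CPM in ILCpro_WT, or 2.05-fold lower in ILCpro_KO (1.60 to 2.65). These values describe the choice itself. As a background, 1.39% of 216 ILCpro_KO cells in clusters of other lineages had a Zbtb16 UMI at that depth, with a median of 5360.5 UMIs before thinning, against 10.7% of the 484 cells in the remaining clusters, where the median was 5417.

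Clustering of both ILCpro libraries, made without Zbtb16, the marker genes and the genes of the cell cycle, ribosome, mitochondria and sex chromosomes, placed the 130 cells in several kinds of cell rather than in one. The name ILCP-like (ILC precursor-like) rests on the markers Tcf7, Rora, Pdcd1 and Tox in cluster 2, and on others such as Gata3 and Il7r as well in cluster 0. Of the 130 cells, 28 (21.5%, 14.8 to 29.6) were in ILCP-like clusters, against 499 of 839 ILCpro_WT cells with Zbtb16 (59.5%). Cluster 2, an ILCP-like cluster led by Pgam2, Rxrg, Nrp2 and Ccl5, held 23 of the 28, and cluster 0, led by Cacna1e, Lmo4 and Il7r, held 5. In ILCpro_WT the larger part was in cluster 0, with 268 cells, and 222 were in cluster 2. A further 70.8% of the 130 ILCpro_KO cells were in 4 other clusters: 30 cells in cluster 3, led by the mitotic genes Ube2c and Cenpf, 18 in cluster 4, led by Ung, Ccnd2 and Mcm2, 21 in cluster 5, led by Dntt and Il12a, and 23 in cluster 6, led by Bhlhe41, Asb2 and Cd7. Clusters 3 to 6 are called by their leading genes. In ILCpro_KO cells without Zbtb16, the shares of clusters 3, 4, 5 and 6 were 12.1%, 11.8%, 15.5% and 21.0%. In the 130 cells they were 23.1%, 13.8%, 16.2% and 17.7%. Only 6 cells were in clusters of other lineages: 2 dendritic cell-like, 1 neutrophil-monocyte-like and 3 in a cluster led by the basophil genes Prss34 and Mcpt8.

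Detection of Zbtb16 was lower in ILCpro_KO than in ILCpro_WT within clusters 2 to 6 at equal depth. Cluster 2 had Zbtb16 in 34.4% of its ILCpro_KO cells, against 59.6% of its ILCpro_WT cells. The shares were 10.9% against 13.5% in cluster 3, 5.81% against 15.6% in cluster 4, 9.91% against 14.5% in cluster 5, and 5.76% against 18% in cluster 6. The intervals of the 2 shares overlap in all of clusters 3 to 6, and widely in clusters 3 and 5. In cluster 2 they barely part (upper bound 53.19% in ILCpro_KO, lower bound 53.23% in ILCpro_WT). Without thinning, where ILCpro_KO cells were deeper, the share was 71.9% against 78.7% in cluster 2 and 15.8% against 15.5% in cluster 6. ILCP-like cluster 0 had only 6 ILCpro_KO cells: the share was 66.7% against 69.7% at equal depth and 83.3% against 66.3% without thinning, and the level with all UMIs was 1.26 times that of ILCpro_WT (0.755 to 1.99). The next ratios count all UMIs of all cells of a cluster, with or without a Zbtb16 UMI. In cluster 2, the Zbtb16 level of ILCpro_KO was 0.667 times that of ILCpro_WT (0.50 to 0.874). The ratio was 0.475 (0.332 to 0.671) in cluster 3 and 0.405 (0.236 to 0.669) in cluster 4. It was 0.642 (0.371 to 1.11) in cluster 5 and 0.406 (0.232 to 0.715) in cluster 6. Both the cluster makeup and detection within clusters differed between the libraries: with its own detection shares but the cluster makeup of ILCpro_KO, ILCpro_WT would have 14.4% of cells with Zbtb16 in place of 34.0%.

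**Figure D1:**
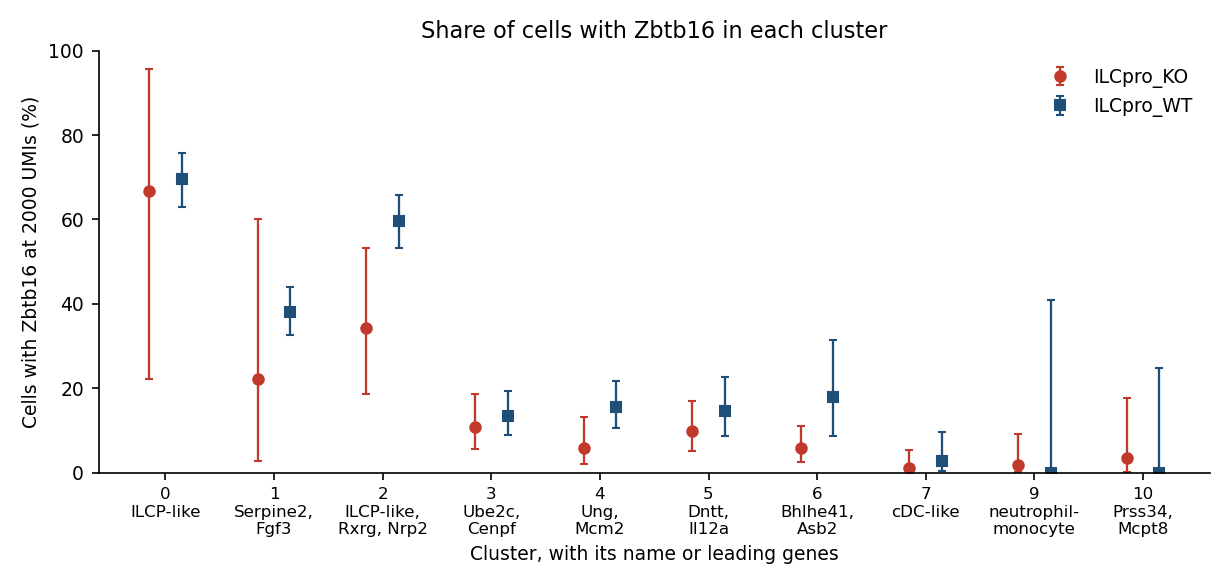
Share of cells with a Zbtb16 UMI after thinning to 2000 UMIs (percent, vertical axis) in each cluster (horizontal axis) for ILCpro_KO (circles) and ILCpro_WT (squares), with exact 95% intervals for counting error, for clusters with 5 or more cells in each library. In cluster 2 the share is 34.4% in ILCpro_KO and 59.6% in ILCpro_WT, and in the dendritic cell-like cluster it is 0.980% in ILCpro_KO.

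Compared with ILCpro_KO cells lacking Zbtb16, the cells with Zbtb16 had higher RNA of regulators of the ILC lineage and lower RNA of myeloid, dendritic and erythroid genes. Of 1418 genes that reached 100 CPM in the higher group, 13 (0.917%) were at least 2-fold higher and 44 (3.1%) at least 2-fold lower, on the scale log2((CPM + 10)/(CPM + 10)). Those higher were Rora, Ccl5, Ikzf2, Tnni1, Vezf1, Gmfb, Tcf7, Mycn, Tns1, Nrgn, Lef1, Gimap6 and Ftsj3. Of 13 ILC transcription factors with at least 20 CPM, 5 were at least 2-fold higher and none lower, and their median log2 ratio was 0.66, or 0.47 to 1.14 when each gene is set at a bound of its interval. The 5 were Rora, Tox2, Ikzf2, Lef1 and Tcf7, the gene inactivated in this library. Over all 5646 genes at that minimum the median was 0.04, 1.93% were at least 2-fold higher and 4.06% lower. The summed level of the 13 factors was 3422 CPM in the cells with Zbtb16 and 2278 CPM in those without.

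Rora, a nuclear receptor needed for ILC2, was at 252 CPM (194 to 321) in ILCpro_KO cells with Zbtb16 and 26.3 CPM in those without, 9.59-fold higher (6.13 to 15.3). Tox2, an HMG box factor of early ILC and NK cell development, was at 77.5 CPM against 1.75 CPM, 44.3-fold higher with the wide interval of 10.8 to 391 that 2 UMIs in the cells without Zbtb16 allow. The library's other cells thus held almost no Tox2. Ikzf2, which encodes Helios, was at 275 CPM against 102 CPM, 2.69-fold higher (1.97 to 3.64). Lef1, the closest relative of TCF-1 and binding the same DNA motif, was at 190 CPM against 86.7 CPM, 2.19-fold higher (1.52 to 3.12). Tox, required for the earliest ILC precursors, was 1.87-fold higher (295 against 158 CPM), and Gata3, a factor of all ILC subsets that express IL-7 receptor, was 1.66-fold higher (116 against 70.1 CPM). These stayed under the 2-fold line. Runx3, a runt factor of cytotoxic and innate lymphocytes, was 1.57-fold higher (1101 against 703 CPM). Other regulators did not follow: Id2, the inhibitor of E proteins that fixes the ILC fate, was at 760 CPM against 790 CPM, Nfil3 at 128 against 163, Ets1 at 31.0 against 35, and Maf at 42.6 against 50.8. Bcl11b, a T cell and ILC2 factor, was at 15.5 CPM, from 4 UMIs, against 32.4 CPM. With the cells without Zbtb16 weighted to the cluster makeup of those with it, Bcl11b was at 15.5 against 0 CPM.

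**Figure D2:**
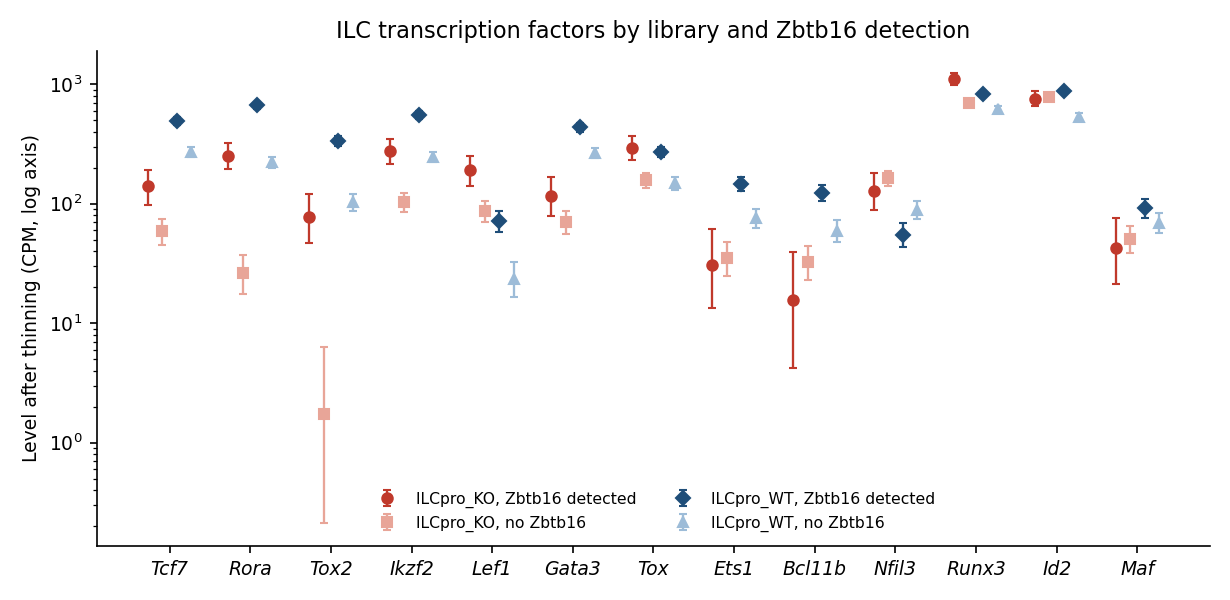
Level of 13 ILC transcription factors after thinning (CPM, log axis) in ILCpro_KO and ILCpro_WT cells with and without Zbtb16, with exact 95% Poisson intervals for counting error. Rora is at 252 CPM in ILCpro_KO cells with Zbtb16, against 26.3 CPM in ILCpro_KO cells without it and 668 CPM in ILCpro_WT cells with it, while Lef1 is highest in ILCpro_KO cells with Zbtb16.

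Among surface and effector genes of ILC precursors, 2 of 12 measured at 20 CPM were at least 2-fold higher in the cells with Zbtb16 and none lower. The shares over all 5646 genes were 1.93% higher and 4.06% lower. Pdcd1, which encodes PD-1, a marker of committed ILC precursors, was at 96.9 CPM against 13.1 CPM, 7.38-fold higher (3.74 to 15.1). Ccl5, a chemokine, was at 907 CPM against 222 CPM, 4.09-fold higher (3.41 to 4.91). The RNA of Pdcd1 and Ccl5 was unevenly spread, with the 234 Ccl5 UMIs in 30 of the 129 cells. The chain of the IL-18 receptor Il18r1 was at 140 against 109 CPM, Il7r, the IL-7 receptor, at 19.4 against 14 CPM, and Itgb7, a chain of the sorted integrin, at 178 against 180 CPM. Cxcr6, Il2ra and Itgae had no UMI in the 129 cells, where 3 UMIs would be 11.6 CPM. A small number of cells carried most of the Rora, Tox2 and Pdcd1 RNA. At least 2 of these 3 genes were detected together in 19 of 129 cells with Zbtb16 (14.7%, 9.11 to 22.0), against 2 of 571 ILCpro_KO cells without (0.350%), and none of the 3 in 76.7% against 95.1%. Of the 19 cells, 13 were in cluster 2 and 16 had 2 or more Zbtb16 UMIs.

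Counted cell by cell, 3 or more of 12 ILC factors other than Zbtb16 and Tcf7 were detected in 55.8% of the cells with Zbtb16 (46.8 to 64.5), against 38.0% of ILCpro_KO cells without, and the mean number was 3.18 against 2.06. Without thinning the shares were 87.7% against 66.4%. The same share was 21.6% in dendritic cell-like ILCpro_KO cells and 0 of 59 in neutrophil-monocyte-like ones. The molecules that work with PLZF did not differ by 2-fold. Of 10 measured co-repressors and partners, none was 2-fold higher or lower, with a median log2 ratio of 0.09. The co-repressor Ncor1 was at 120 CPM with Zbtb16 against 151 CPM without, the histone deacetylase Hdac1 at 120 against 131, and the Polycomb methyltransferase Ezh2 at 116 against 144. Bcl6, a BTB relative of PLZF, had no UMI in any of these groups after thinning, and 0 of 5 other measured relatives passed 2-fold. Of 9 measured genes of the TCF and Wnt pathway, Tcf7 and Lef1 were the 2 that were higher, while Ctnnb1, which encodes beta-catenin, had 81.4 CPM with Zbtb16 and 72.7 CPM without. The Notch target gene Hes1 was 5.53-fold higher (38.8 against 7.01 CPM, 1.97 to 16.1), the 1 of 4 measured Notch pathway genes to pass 2-fold. Among all 5646 genes at 20 CPM, 1.93% were at least 2-fold higher and 4.06% lower. None of 6 Bcl2 family genes passed, although the survival factor Bcl2 was 1.41-fold higher (1574 against 1116 CPM, 1.26 to 1.58).

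Neutrophil, monocyte, erythroid and dendritic cell genes were lower in the cells with Zbtb16. The summed mast cell and basophil genes, read mostly in 3 of these cells, were not. Of 13 measured neutrophil and monocyte genes, 12 were at least 2-fold lower, against 4.06% of all 5646 genes at 20 CPM. The list summed to 996 CPM with Zbtb16 and 5056 CPM without. The granule gene Ngp had 0 UMIs in the 129 cells and 230 CPM in those without Zbtb16, which is at least 19.8-fold lower against a floor of 3 UMIs over the group, and Elane, which encodes neutrophil elastase, was at 15.5 against 428 CPM. The alarmin genes S100a8 and S100a9 were 32.7-fold (15 to 89.4) and 32.6-fold lower. The 5 measured erythroid and megakaryocyte genes were lower (27.1 against 689 CPM summed), 6 of 9 MHC class II genes (585 against 1605 CPM), and 3 of 4 dendritic cell genes (399 against 1321 CPM). Irf8, the factor of dendritic cells and monocytes, was at 426 CPM (350 to 514) against 1001 CPM, 2.35-fold lower (1.93 to 2.88). Cd3e, a T cell receptor component, had no UMI against 44.7 CPM. None of 4 measured mast cell and basophil genes passed 2-fold (919 against 960 CPM summed). In the cells with Zbtb16, 82 of 84 Prss34 UMIs and 91 of 99 Mcpt8 UMIs were in 3 cells. The NK cell genes summed to 624 CPM with Zbtb16 and 408 CPM without, 1.53-fold higher (1.27 to 1.83). Of the 161 UMIs in that sum with Zbtb16, 155 were of Nkg7, and 6 of the list's 11 genes had none. The cells without Zbtb16 include the clusters of other lineages, and with those clusters left out of both groups 7 genes were 2-fold lower, of which 5 were among the 44, and 8 were higher, 6 of them among the 13: Rora, Lef1, Ikzf2, Ccl5, Gmfb and Vezf1. When the cells without Zbtb16 were weighted to the cluster makeup of those with it, the median of the factors was 0.16 and only Ccl5 and Gmfb of the 13 stayed 2-fold higher, although that weighting rests on 9 cells in cluster 2.

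**Figure D3:**
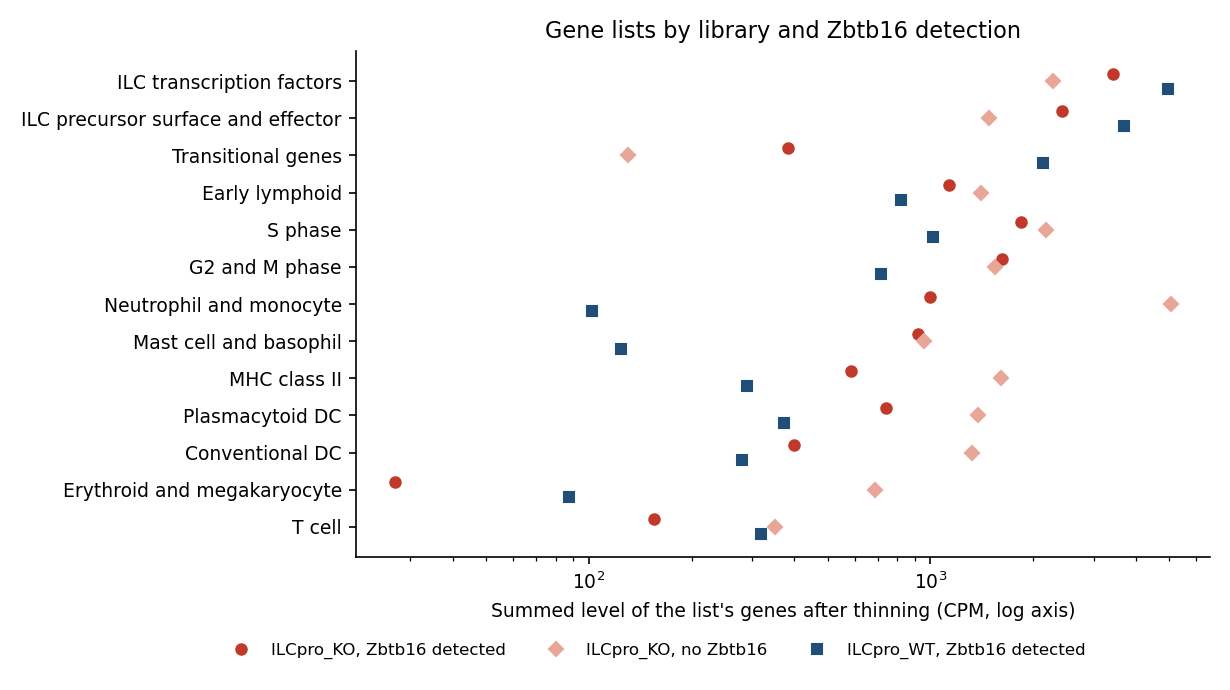
Summed level of the genes of 13 lists after thinning (CPM, log axis) in ILCpro_KO cells with Zbtb16, ILCpro_KO cells without it and ILCpro_WT cells with it. Neutrophil and monocyte genes sum to 996 CPM in ILCpro_KO cells with Zbtb16, 5056 CPM in those without and 102 CPM in ILCpro_WT cells with Zbtb16, and the 8 transitional genes to 384, 130 and 2128 CPM.

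The number of Zbtb16 UMIs in a cell, from 0 to 1, 2 and 3 or more, separated the ILCpro_KO cells further. Rora was at 26.3, 52.6, 419 and 705 CPM in these 4 groups of 586, 77, 31 and 22 cells. Pdcd1 was at 13.1, 6.58, 129 and 364 CPM, and Tox2 at 1.75, 32.9, 113 and 182 CPM. For Rora and Pdcd1 the step with the highest ratio was between 1 and 2 UMIs, and the 53 cells with 2 or more held the higher levels. Ccl5 was at 222, 533, 984 and 2091 CPM, and already higher at 1 UMI. Irf8 ran the other way, at 1001, 592, 194 and 182 CPM, as did the neutrophil and monocyte genes, which summed to 5056, 1507, 306 and 205 CPM. Of the 229 UMIs behind the 1507 CPM, 73 were Lyz2 UMIs of 1 cell. Another 23 Mpo and 18 Ctsg UMIs were in the 3 cells of the cluster led by Prss34 and Mcpt8. The share of cells in ILCP-like clusters was 1.71%, 7.79%, 29.0% and 59.1%, the last being 13 of 22 cells. In ILCpro_WT that share was 26.0%, 48.6%, 62.0% and 79.2%. Cells with 1 UMI and cells with none differ by 1 captured molecule, and the median depth of the 4 ILCpro_KO groups was 5156.5, 5835, 5642 and 6227.5 UMIs.

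The levels of Lef1 and Fgf3 differed between the libraries in opposite directions. The groups were set by Zbtb16 UMIs before thinning, and ILCpro_KO cells were deeper. The same UMI count thus does not stand for the same level of Zbtb16 in both libraries. Lef1 was at 86.7, 78.9, 210 and 545 CPM over the ILCpro_KO groups with 0, 1, 2 and 3 or more Zbtb16 UMIs, against 23.7, 54.3, 79.9 and 97.1 CPM in ILCpro_WT. Fgf3, a growth factor gene read in the TCF-1-competent precursors, was at 3.50, 6.58, 16.1 and 22.7 CPM, the last 3 from 1 UMI each, against 81.5, 198, 275 and 294 CPM in ILCpro_WT. For the 22 ILCpro_KO cells with the most Zbtb16, that single UMI gives an interval with an upper bound of 127 CPM. The factors other than Zbtb16 and Tcf7, with Lef1 among them, summed to 2219, 2513, 4048 and 4864 CPM in ILCpro_KO, against 2455, 3636, 4675 and 5874 CPM in ILCpro_WT.

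**Figure D4:**
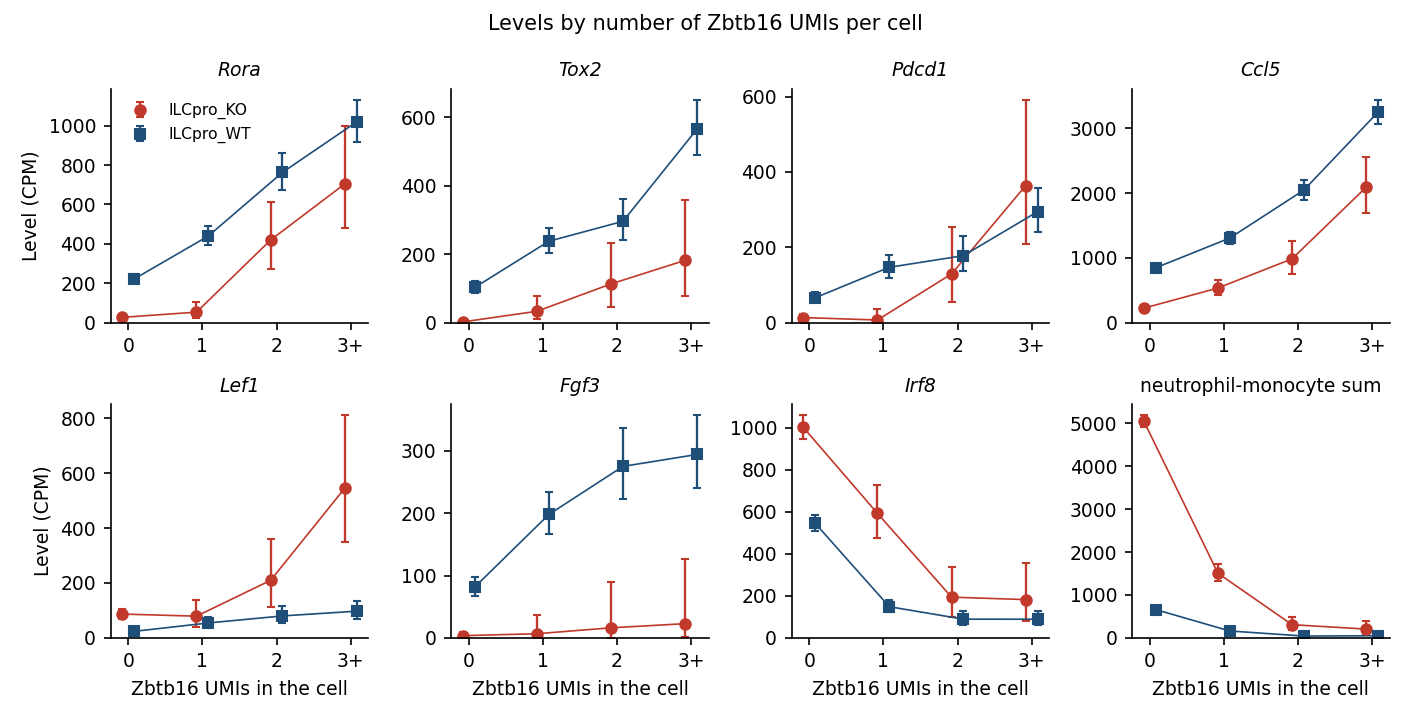
Level after thinning (CPM) of 7 genes and of the summed neutrophil and monocyte genes in cells with 0, 1, 2 and 3 or more Zbtb16 UMIs before thinning, for ILCpro_KO (circles) and ILCpro_WT (squares), with exact 95% Poisson intervals for counting error. Lef1 reaches 545 CPM in ILCpro_KO and 97.1 CPM in ILCpro_WT, while Fgf3 reaches 22.7 CPM in ILCpro_KO and 294 CPM in ILCpro_WT.

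Set against ILCpro_WT cells that also had Zbtb16, the ILCpro_KO cells with Zbtb16 had lower RNA of 6 of 13 ILC regulators, and higher RNA of Lef1, Nfil3 and some progenitor and cell cycle genes. The 6 include Tcf7, the gene inactivated in ILCpro_KO, and the median below includes it too. This comparison shares the 129 ILCpro_KO cells with the one above. Among 1377 genes, 57 (4.14%) were at least 2-fold higher and 30 (2.18%) at least 2-fold lower. Of the 13 ILC transcription factors, 2 were higher and 6 lower, with a median log2 ratio of -0.98 (-1.69 to -0.66 at the bounds), where all 5438 genes at 20 CPM had a median of 0.20, 5.22% higher and 2.85% lower. Gata3 was at 116 CPM (78.5 to 166) in ILCpro_KO and 436 CPM in ILCpro_WT, 3.75-fold lower (2.60 to 5.60). Rora was 2.65-fold lower (252 against 668 CPM), Tox2 4.33-fold lower (77.5 against 336 CPM), and Ets1, a factor of NK cells and ILC2, 4.73-fold lower (31.0 against 147 CPM). Bcl11b was 7.91-fold lower (15.5 against 123 CPM, 3.03 to 29.4), from 4 UMIs in ILCpro_KO. A second set of regulators was close in both groups. Id2 was at 760 against 879 CPM, Tox at 295 against 272 CPM, and Runx3, 1.32-fold higher, at 1101 against 834 CPM. Lef1 was 2.66-fold higher (190 against 71.5 CPM, 1.84 to 3.78) and Nfil3, which acts at the start of ILC development, 2.34-fold higher (128 against 54.7 CPM, 1.5 to 3.56).

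Wide gaps were also found in 8 transitional genes, a list taken from earlier results of these libraries and so no independent evidence of its direction: all 8 were at least 2-fold lower, and they summed to 384 CPM in ILCpro_KO and 2128 CPM in ILCpro_WT. Fgf3 was at 11.6 CPM (2.40 to 34.0), 3 UMIs, in ILCpro_KO cells with Zbtb16 and 242 CPM in ILCpro_WT cells with Zbtb16. Bcas1 was at 19.4 against 219 CPM, 11.3-fold lower (4.79 to 35.1), Lmo4, a LIM-only adaptor protein, at 182 against 902 CPM, 4.95-fold lower (3.70 to 6.78), and Txk, a Tec family kinase, at 15.5 against 116 CPM. Igfbp7 was at 15.5 against 89.1 CPM and Cacna1e, a calcium channel gene, at 3.88 against 73.7 CPM. In ILCpro_KO cells without Zbtb16, Fgf3, Bcas1 and Txk were at 3.50, 1.75 and 4.38 CPM and Igfbp7 had no UMI. Within ILCpro_KO, Rxrg and Tox2 were past 2-fold on the log2 scale with its 10 CPM pseudocount among the 3 of these genes that reached 20 CPM there: Rxrg, a retinoid receptor, was at 58.1 CPM with Zbtb16, against 4.38 CPM without it and 151 CPM in ILCpro_WT with it.

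Of 13 measured surface and effector genes, 1 was higher and 3 lower than in ILCpro_WT cells with Zbtb16. The shares over all 5438 genes at 20 CPM were 5.22% higher and 2.85% lower. Il7r was at 19.4 CPM (5 UMIs) against 101 CPM, 5.24-fold lower (2.19 to 16.4), Ltb, which encodes lymphotoxin beta, at 62.0 against 149 CPM, and Ccl5 at 907 against 1985 CPM, 2.19-fold lower (1.91 to 2.51). Pdcd1 was 1.98-fold lower (96.9 against 192 CPM) and just under the line on the log2 scale used. Cd244, which encodes the sorted marker 2B4, was 2.79-fold higher (120 against 43.1 CPM). Socs1, an inhibitor of cytokine signalling, was 7.44-fold lower (15.5 against 115 CPM), and Arg1, an ILC2 gene, had no UMI in ILCpro_KO against 44.5 CPM. The ILC2 program as a whole could not be described, since 8 of its 11 genes had no UMI in the 129 cells. The PLZF partners were again within 2-fold, 0 of 12. Runx1 was the nearest, 2.12-fold higher as a plain ratio (85.3 against 40.1 CPM) and 0.93 on the log2 scale.

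Some genes of earlier progenitors and of dividing cells were higher in the ILCpro_KO cells with Zbtb16. Of 9 measured early lymphoid genes, 3 were at least 2-fold higher and 1, Il7r, lower. Among all 5438 genes at 20 CPM, 5.22% were higher and 2.85% lower. Flt3, a receptor of lymphoid progenitors, was at 58.1 CPM in ILCpro_KO and 10.2 CPM in ILCpro_WT, 5.69-fold higher (2.56 to 12.7), Dntt, the template-independent polymerase of lymphoid progenitors, at 109 against 24.8 CPM, and Mef2c at 310 against 125 CPM. Cd34, a progenitor antigen, was 2.89-fold higher and the cyclin gene Ccnd2 3.58-fold higher (640 against 179 CPM). Of 18 measured S phase genes 6 were higher, and of 21 G2 and M phase genes 12. With the ILCpro_WT cells weighted to the cluster makeup of the ILCpro_KO cells, Flt3 and Ccnd2 were still past 2-fold (log2 ratios of 1.48 and 1.08), while Dntt (0.95), Mef2c (0.74), Cd34 (0.67), Mcm3 (0.90) and Ube2c (0.23) were not. By the summed cycle genes, 55.8% of the ILCpro_KO cells with Zbtb16 were counted as cycling, against 66.4% of ILCpro_KO cells without and 27.4% of ILCpro_WT cells with it; its part in the other differences was not tested. Within ILCpro_KO, none of 20 and 21 cycle genes differed by 2-fold between cells with and without Zbtb16. There the early lymphoid genes summed to 1132 CPM with Zbtb16 and 1407 CPM without, and Flt3 was at 58.1 against 67.4 CPM. Irf8 was 3.61-fold higher than in ILCpro_WT (426 against 118 CPM), although 2.35-fold lower than in the other ILCpro_KO cells.

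Several of the highest ratios to ILCpro_WT came from very few cells. Prss34 and Mcpt8, basophil proteases, were 63.7-fold and 43.8-fold higher, but 82 of the 84 Prss34 UMIs and 91 of the 99 Mcpt8 UMIs were in 3 cells of the cluster these genes lead. Lyz2, a lysozyme gene, was 58.4-fold higher, with 73 of its 77 UMIs in 1 cell. Cd74, the MHC class II invariant chain, was 4.87-fold higher, with 38 of 44 UMIs in 3 cells. Lef1 was not of this kind: its 49 UMIs were in 25 cells, with 37 of the UMIs in cluster 2 and 14 in the top 3 cells. With the clusters of other lineages left out, 56 genes were higher, 47 of them among the 57, and all 30 lower genes remained. Weighted to the cluster makeup of the ILCpro_KO cells with Zbtb16, 39 genes were higher and 21 of the 57 remained, and 9 genes were lower and 6 of the 30 remained, namely Fgf3, Bcas1, Tcf7, Igfbp4, Ap3s1 and Gata3, and the factors' median was -0.28. Lef1 was still higher under that weighting (190 against 35.5 CPM) and Nfil3 was not (128 against 122 CPM).

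Cluster 2 allowed a comparison of cells with Zbtb16 within 1 cluster, 23 from ILCpro_KO and 222 from ILCpro_WT, with all UMIs counted (128072 and 872697, medians of 5207 and 3394.5 per cell). The factors other than Zbtb16 and Tcf7 summed to 5427 CPM in ILCpro_KO and 5170 CPM in ILCpro_WT, a ratio of 1.05 (0.968 to 1.14). That sum includes Lef1, at 703 against 65.3 CPM, so it does not mean that the single factors were equal. Rora was at 617 CPM against 735 CPM (ratio 0.840, 0.656 to 1.06), Pdcd1 at 273 against 235 CPM, Id2 at 1038 against 1078 CPM, Tox at 390 against 346 CPM and Ccl5 at 2147 against 2516 CPM. In these genes the 23 cells were within 1.2-fold of their ILCpro_WT counterparts. Tox2 was at 297 against 430 CPM (ratio 0.690, 0.481 to 0.965) and Ikzf2 at 445 against 638 CPM (0.697, 0.521 to 0.917). Gata3 was 2.05-fold lower (219 against 449 CPM, 1.40 to 3.13) and Lmo4 3.29-fold lower (211 against 694 CPM). Bcas1 was 7.96-fold lower (31.2 against 249 CPM), and Fgf3 was at 7.81 CPM, a single UMI, against 284 CPM. The transitional genes summed to 2.91-fold lower (726 against 2115 CPM). Lef1 was 10.8-fold higher (703 against 65.3 CPM, 7.64 to 15.3), with 90 UMIs in the 23 cells and 57 in the 222. In the 9 ILCpro_KO cells of cluster 2 without a Zbtb16 UMI, Lef1 was at 288 CPM, Rora at 349 CPM and Tox2 at 20.6 CPM. Rora, Pdcd1, Tox and Tcf7, the gene inactivated in ILCpro_KO, gave the cluster its name. Lef1, Ccl5 and Lmo4 could enter the clustering, and a cluster's cells are alike in such genes by construction.

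**Figure D5:**
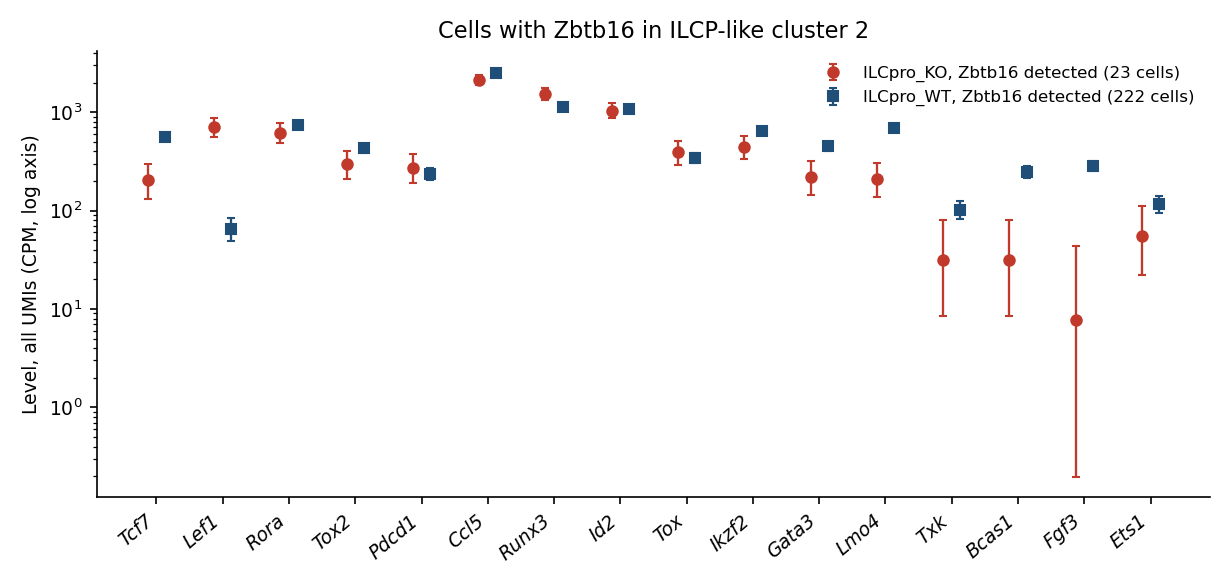
Level with all UMIs (CPM, log axis) of 16 genes in cells with Zbtb16 of ILCP-like cluster 2, 23 from ILCpro_KO (circles) and 222 from ILCpro_WT (squares), with exact 95% Poisson intervals for counting error. Rora is at 617 CPM in ILCpro_KO and 735 CPM in ILCpro_WT, Lef1 at 703 CPM in ILCpro_KO and 65.3 CPM in ILCpro_WT, and Fgf3 at 7.81 CPM in ILCpro_KO and 284 CPM in ILCpro_WT.

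In clusters 3 to 6, the cells with Zbtb16 held less Rora and Tox2 than those of cluster 2, again with all UMIs counted. In cluster 3, Rora was at 37.9 CPM in ILCpro_KO cells with Zbtb16, against 4.55 CPM in ILCpro_KO cells without and 192 CPM in ILCpro_WT cells with it. In clusters 4 and 5, Rora was at 15.1 and 0 CPM, Tox2 and Lef1 had no UMI in either, and Fgf3 none in clusters 3 to 6. In cluster 3, Ikzf2 was at 133 CPM with Zbtb16 and 57.7 CPM without, and Gata3 at 130 CPM with Zbtb16 and 66.8 CPM without. Irf8 was lower than in the cells without Zbtb16 of the same cluster throughout, at 316 against 673 CPM in cluster 3, 899 against 1287 in cluster 4, 581 against 749 in cluster 5 and 363 against 754 in cluster 6. Cluster 5 had Dntt at 374 CPM with Zbtb16 against 229 CPM without, and Runx3 at 1005 against 528 CPM. In cluster 6, where Runx3 was at 2045 CPM with Zbtb16 and 1865 CPM without, Ccl5 was at 1319 CPM with Zbtb16, against 693 CPM without it and 1474 CPM in the 13 ILCpro_WT cells with it. Rora there was at 44.3 CPM with Zbtb16 and 39.7 CPM without, and Ikzf2 at 35.4 CPM in ILCpro_KO against 397 CPM in ILCpro_WT cells with Zbtb16.

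In ILCpro_WT, 4 of the 13 factors (Rora, Tox2, Lef1 and Ikzf2) were at least 2-fold higher in cells with Zbtb16 than in those without, and none lower. Over all 5151 genes at 20 CPM, 0.718% were at least 2-fold higher and 1.16% lower. Among 1195 genes that reached 100 CPM, 13 (1.09%) were at least 2-fold higher and 15 (1.26%) at least 2-fold lower in ILCpro_WT cells with Zbtb16 than in those without. Rora was at 668 against 221 CPM, Tox2 at 336 against 102 CPM, Ccl5 at 1985 against 845 CPM and Lef1 at 71.5 against 23.7 CPM. Rora was 3.02-fold higher there, against 9.59-fold in ILCpro_KO, and whether these ratios differ was not tested. At least 2 of Rora, Tox2 and Pdcd1 were detected in 38.2% of ILCpro_WT cells with Zbtb16 and 11.4% of those without, and 3 or more factors in 77.5% and 42.0%.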

How the data were processed

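Single cells were measured in 3 10x Chromium v2 libraries, 1 per population. The deposited values are raw UMI counts per gene and barcode made by the authors, and Cell Ranger 2.0.1, with STAR 2.5.1b and bcl2fastq 2.17, and the build mm10 appear in the submitters' processing notes, with no settings. The tables hold 27998 genes and 716, 1834 and 812 barcodes for ILCpro_KO, ILCpro_WT and ALP.

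Cells with at least 500 genes and at most 10% mitochondrial UMIs were kept and split by Zbtb16. Groups held 869770 UMIs (ILCpro_KO with Zbtb16), 3514291 (ILCpro_KO without) and 2941778 (ILCpro_WT with). Each cell was thinned to 2000 UMIs without replacement, shallower cells were left out, and counts were summed per group and scaled to CPM, with a pseudocount of 10 CPM for log2 ratios. Folds are plain CPM ratios. Intervals are exact at 95% (Poisson, conditional binomial or Clopper-Pearson) and cover counting error only. Leiden clusters used scanpy 1.11.5 and leidenalg 0.10.2 (2000 variable genes, 30 components, 15 neighbours, resolution 1.0). Scrublet-marked doublets were kept (1 of the 130 cells). Named genes are the 12 highest and lowest ratios per comparison at 100 CPM, all members of 4 lists on ILC regulators, ILC surface genes, PLZF partners and transitional genes, up to 4 of every other list, and the leading genes of clusters; others named in the text were chosen after their values were seen. A cluster was named only where 3 or more markers were higher and its leading genes matched the name. Gene positions are from GENCODE vM21 (GRCm38). Code ran in Python 3.11.15 with numpy 2.4.6 and scipy 1.17.1, and the ratio step was tested on simulated data. The members and lists were chosen with earlier results of these data known.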

Additional observations from a re-analysis of the deposited data

How the results depend on the processing

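The direction of the factors' median held in both comparisons under all settings tried, but the counts of genes past 2-fold did not hold. Between ILCpro_KO cells with and without Zbtb16, 13 genes were higher. That count was 35 with cells thinned to 1000 UMIs, 8 without thinning, 59 with at least 2 Zbtb16 UMIs required, 48 with Zbtb16 read in the thinned counts, 29 with cells matched by UMI total, 8 without other lineages, 39 without cycling cells, 4 at a pseudocount of 30 CPM, 42 at a lower minimum level and 139 with none. The 44 lower genes became 87 with at least 2 Zbtb16 UMIs, 7 without other lineages, 93 at the lower minimum and 330 with none. Against ILCpro_WT cells with Zbtb16, the 57 higher genes became 101 at 1000 UMIs, 104 with at least 2 Zbtb16 UMIs, 119 with Zbtb16 in the thinned counts, 103 without cycling cells, 34 at a pseudocount of 30 CPM, 147 at the lower minimum and 365 with none, and the 30 lower genes became 51, 51, 67 and 239 at 1000 UMIs, at 2 Zbtb16 UMIs, at the lower minimum and with none. The median log2 ratio of the factors, 0.66 within ILCpro_KO, was 0.30 without cycling cells, and the -0.98 against ILCpro_WT was -0.61 with cells matched by UMI total. Fewer cells or lower minimum levels leave fewer UMIs per gene; otherwise the cause was not tested.

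2 alternatives were chosen after seeing the data. Weighting to the cluster makeup gave 7 higher and 10 lower genes and a factor median of 0.16 within ILCpro_KO, and 9 lower genes and a median of -0.28 against ILCpro_WT. Leaving out clusters 3 and 4 gave 34 higher and 78 lower genes within ILCpro_KO.

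The share of ILCpro_KO cells with Zbtb16, 18.2%, was 7.86% at 2000 UMIs, 5.03% at 1000, 7.40% at a minimum of 2 UMIs and 25.1% without other lineages. The 21.5% in ILCP-like clusters was 14.6% at resolution 0.5 and 3.85% at 1.5; at 1.5 the cluster led by Ccl5 and Rxrg, with 20 ILCpro_KO cells, was left unnamed. Cells with 3 or more factors, 55.8%, were 33.8% at 1000 UMIs and 87.7% without thinning.

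Of 51 named genes past 2-fold within ILCpro_KO and 65 against ILCpro_WT, 15 and 12 values changed sign, as log2 ratios. Within ILCpro_KO these were Prg2 matched by UMI total (0.36); Prg2 (0.51), S100a8 (0.71), Hbb-bs (0.36), Ifi30 (0.39) and H2-Eb1 (0.23) without other lineages; Hbb-bs (0.91) and Prtn3 (0.0818) without cycling cells; and Lyz2 (1.47), Ifi30 (0.0932), Ctsg (0.20), H2-Ab1 (0.37), H2-Aa (0.0873), H2-Eb1 (0.61) and Cd74 (0.20) when weighted. Against ILCpro_WT they were H2-DMb1 at 1000 UMIs (0.41) and without thinning (0.31); Prss34 (-0.66), H2-Ab1 (-0.0722) and H2-Aa (-0.0014) at 2 Zbtb16 UMIs; Ube2c (-0.26), Plk1 (-0.14), Aurkb (-0.38) and Rrm2 (-0.14) without cycling cells; and Ube2c (-1.16), Plk1 (-0.52) and Aurkb (-0.43) without clusters 3 and 4.

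No paired analysis was possible because each group is 1 library and no result comes from a test. With 129 cells of 2000 UMIs, genes under 11.6 CPM, the level of 3 UMIs, could not be told from absence.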
